A study of Mus musculus with 24 samples.

Results

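Rab GTPase genes were taken by symbol: Rab followed by a digit, leaving out symbols that continue with gap, if, ep or fip, which name GTPase-activating proteins, effectors and other partners. The array carried 62 such symbols. Of these, 44 had a probe detected (detection p-value under 0.01) on at least 3 of 24 arrays, among 8875 genes tested in the same way. The products of 42 of the 44 are Rab GTPases, whereas Rab3il1, an exchange factor for Rabs, and Rab26os, a transcript named as antisense to Rab26, fit the naming rule without being GTPases. Each gene was read from its brightest tested probe.

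The arrays measured RNA of bone marrow-derived macrophages, cells grown from the marrow of adult female C57bl/6J mice in medium conditioned by L929 cells. One group of mice was Gch1fl/flTie2cre (GCHfl/flTie2cre in the labels), in which exons of Gch1 flanked by loxP sites are removed by a Cre driven from the Tie2 promoter, which is active in endothelial and bone marrow-derived cells, and Gch1 encodes the rate-limiting enzyme of tetrahydrobiopterin synthesis. The other was Gch1fl/fl without Cre (GCHfl/fl in the labels), called wild-type, so that both genotypes carried the floxed allele. Cultures were kept without serum and then stimulated with lipopolysaccharide (LPS) and 10 ng/ml interferon-γ, and RNA was taken just before stimulation (0 h) and at 2, 8 and 24 h. Each of the 8 groups of genotype and time held 3 animals, numbered 1, 4 and 5 for Gch1fl/flTie2cre and 2, 3 and 6 for wild-type, and values below are log2 intensities given in that order of animals. The same 6 animals were measured at all 4 times. The cultures were measured in bulk, so fewer cells of a type and less RNA per cell cannot be told apart.

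Rab proteins are small GTPases that switch between a GDP-bound form held in the cytosol and a GTP-bound form on a membrane, where they recruit motors, tethers and fusion factors to vesicles. Exchange factors load GTP onto them, GTPase-activating proteins return them to the GDP form, and GDP dissociation inhibitors extract them from membranes by their lipid tails. In macrophages Rab proteins mark the successive stages of the phagosome, which takes on early endosomal and then late endosomal Rabs before it fuses with lysosomes, and they direct the secretion of granules and cytokines.

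Mean intensity ran from 593 to 1750 over the 24 arrays, and 27.0 to 33.3% of probes were detected on each. Gch1 was lower on every Gch1fl/flTie2cre array than on every wild-type array of the same time, with 11.24 to 11.43 against 13.80 to 13.95 at 0 h. Gch1fl/flTie2cre animal 5 and wild-type animal 6 shared a pattern that the other 4 animals lacked. Once group means were taken away, their arrays correlated across probes with r between 0.730 and 0.809 at the 4 times, while neither reached an r above −0.321 with another animal. Of 8 macrophage markers on the array, 7 were detected on all 24 arrays and Cd163 on 0. All 6 T and NK cell markers were detected on 0 arrays, and no B cell, mast cell or erythroid marker reached the threshold for testing. Of the dendritic markers Siglech was detected on all 24 arrays, of the endothelial markers Kdr and Vwf were tested, and of the fibroblast markers Dcn was tested. None of these 4 was called different between genotypes at 0, 2, 8 or 24 h. Of 8 neutrophil markers, 5 were tested (S100a8, S100a9, Ngp, Camp and Ltf) and Mpo and Prtn3 were detected on 0 arrays.

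Promoter sequences of the members were examined because interferon-γ and LPS act through factors with known DNA motifs. RefSeq windows of 300 bases around annotated starts (assembly GRCm38.p6) matched 40 of the 44 members with 52 windows. All windows here means 32851 windows of 27025 genes, whether or not these were tested on the arrays. The ISRE motif of interferon-regulated factors, searched as GAAANNGAAA on both strands, stood in 3.44% of all windows. Among the members it stood in 1 of 52 windows, that of Rab19, where 2 matches overlapped each other. The AP-1 motif, searched as TGACTCA on both strands, stood in 5.2% of all windows and in 2 of the members' 52, 1 of Rab34 and 1 of Rab39b. An NF-κB consensus stood in 4.51% of all windows and in 1 of the members' 52, that of Rab28. CpG-rich windows were common: the ratio of observed to expected CpG had a median of 0.751 in the members' windows and 0.384 in all windows, and it was over 0.6 in 73.1% and 35.8% of them. The members had passed the detection filter and the genes of all windows had not, so this difference is not shown to be a trait of Rab genes.

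Shown are the windows of Rab19, the member that rose most at 2 h and the only one with an ISRE match, of Rab34, the member farthest below wild-type in Gch1fl/flTie2cre macrophages at 24 h, and of Rab40c, which fell most at 2 h in Gch1fl/flTie2cre macrophages and holds no match. They run 5′ to 3′ on the strand of the gene, with motif matches in capitals.
Rab19, chr6:39381103-39381402, plus strand: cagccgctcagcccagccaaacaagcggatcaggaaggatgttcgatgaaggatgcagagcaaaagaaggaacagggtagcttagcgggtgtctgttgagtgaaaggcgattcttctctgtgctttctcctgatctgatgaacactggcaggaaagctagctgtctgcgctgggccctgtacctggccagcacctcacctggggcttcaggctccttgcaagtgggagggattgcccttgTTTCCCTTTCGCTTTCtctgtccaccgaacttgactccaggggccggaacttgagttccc
Rab34, chr11:78188177-78188476, plus strand, the one with a match among its 2 windows: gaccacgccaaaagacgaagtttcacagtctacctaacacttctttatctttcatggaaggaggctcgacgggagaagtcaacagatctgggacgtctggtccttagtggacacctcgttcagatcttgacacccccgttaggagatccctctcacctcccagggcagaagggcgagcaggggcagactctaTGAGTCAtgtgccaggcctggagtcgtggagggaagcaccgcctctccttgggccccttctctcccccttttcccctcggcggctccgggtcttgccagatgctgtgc
Rab40c, chr17:25919665-25919964, minus strand: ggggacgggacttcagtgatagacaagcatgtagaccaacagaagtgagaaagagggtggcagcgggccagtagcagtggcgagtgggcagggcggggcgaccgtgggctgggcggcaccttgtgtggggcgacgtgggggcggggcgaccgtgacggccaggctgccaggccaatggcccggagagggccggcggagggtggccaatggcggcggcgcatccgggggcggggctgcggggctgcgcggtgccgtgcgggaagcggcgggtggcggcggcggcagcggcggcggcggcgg
In the Rab19 window the capitals are the pair of overlapping ISRE matches, read on the other strand, which reaches across the annotated start. In the Rab34 window they are an AP-1 match. A match describes these letters only, and binding was not measured.

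Levels of Rab members and other genes changed after stimulation. No unstimulated culture was measured at 2, 8 or 24 h, so stimulation and time in culture cannot be told apart. At 2 and 8 h, whether the share of members called lay below or above that of all genes depended on the processing. At 24 h the members' share was the lower one. A member was called changed where limma's adjusted p-value was under 0.05 and the fold over 1.5. At 2 h, 2 members rose and 4 fell in Gch1fl/flTie2cre macrophages (13.6% of the 44, with 17% of all genes called, 6.31% higher and 10.7% lower), and 2 rose and 3 fell in wild-type macrophages (11.4%, with 16.2% of all genes called, 6.57% higher and 9.67% lower). With cyclic loess in place of quantile normalization, the 2 h counts were 4 higher and 5 lower in Gch1fl/flTie2cre macrophages (20.5%, with 16.4% of all genes) and 4 higher and 3 lower in wild-type macrophages (15.9%, with 16% of all genes). With the deposited VSN values they were 4 higher and 5 lower in Gch1fl/flTie2cre macrophages (20.5%, with 14.6% of all genes) and 3 higher and 4 lower in wild-type macrophages (15.9%, with 12.9% of all genes). At 8 h, 7 rose and 7 fell in Gch1fl/flTie2cre macrophages (31.8%, with 34.9% of all genes called, 15.8% higher and 19.2% lower), and 7 rose and 6 fell in wild-type macrophages (29.5%, with 31.3% of all genes called, 14.7% higher and 16.6% lower). With the VSN values the wild-type share at 8 h was 27.3%, with 24.5% of all genes. At 24 h, 9 rose and 3 fell in Gch1fl/flTie2cre macrophages (27.3%, with 33.2% of all genes called, 17.5% higher and 15.7% lower), and 7 rose and 1 fell in wild-type macrophages (18.2%, with 32.8% of all genes called, 17.7% higher and 15.2% lower). With cyclic loess the 24 h shares were 25% (34.5% of all genes) in Gch1fl/flTie2cre and 15.9% (32.7%) in wild-type macrophages. With the VSN values they were 22.7% (25.8% of all genes) in Gch1fl/flTie2cre and 11.4% (24.8%) in wild-type macrophages. Median log2 responses of the members were small, at −0.17, 0.15 and −0.09 in Gch1fl/flTie2cre macrophages at 2, 8 and 24 h, where those of all genes were −0.11, −0.06 and 0.02. In wild-type macrophages they were −0.13, 0.19 and 0.03, where those of all genes were −0.10, −0.05 and 0.04.

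In all, 25 members were called at some time, 18 of them in both genotypes, and 19 were called at none. The responses of the 2 genotypes to each time were never called in opposite directions. Of 58 calls, 24 held in every other way of processing tried and without each animal in turn. The matching shares of all genes are not given for these counts, so no trait of the members is read from them. Among the most stable were the responses of Rab40c at 2 and 24 h, of Rab7b at 2 h, and of Rab43, Rab24 and Rab4a at 8 h, which held in this way in both genotypes.

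**Figure D1:**
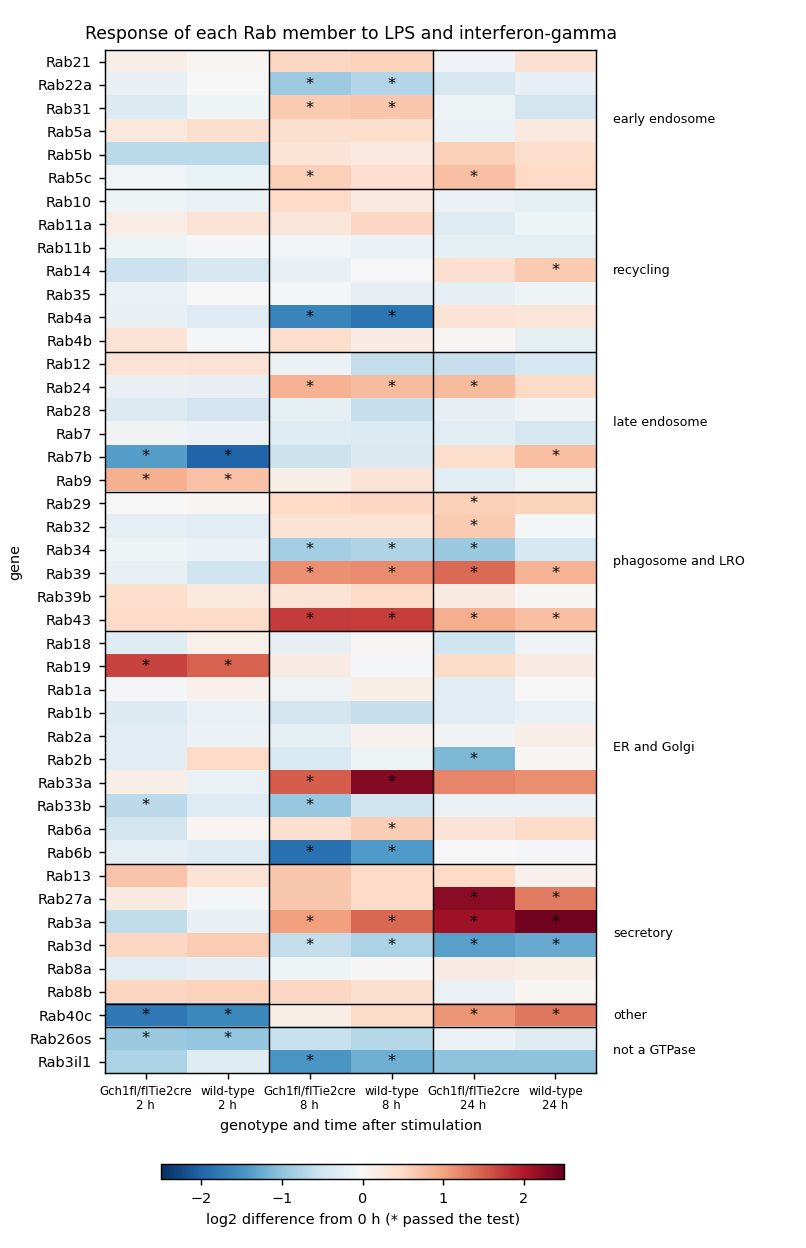
Log2 difference from 0 h of the 44 Rab members (rows, grouped by role; LRO, lysosome-related organelle) in Gch1fl/flTie2cre and wild-type macrophages at 2, 8 and 24 h (columns), from 3 animals per group. An asterisk marks a change past the test; the strongest colours are those of Rab7b and Rab40c at 2 h, Rab43, Rab33a, Rab4a and Rab6b at 8 h, and Rab3a and Rab27a at 24 h.

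Among the 6 early endosomal members, which govern entry and fusion of endocytic vesicles, none was called at 2 h. At 8 h, Rab31, which carries cargo between the Golgi and endosomes, rose and Rab22a, a Rab5 relative of early and recycling endosomes, fell in both genotypes. Rab22a read 7.45, 7.71 and 8.13 at 8 h against 8.46, 8.77 and 8.76 at 0 h in Gch1fl/flTie2cre macrophages, and 7.53, 7.78 and 8.24 against 8.60, 8.25 and 8.91 in wild-type macrophages. The 8 h arrays lay below the 0 h arrays in each genotype, with log2 differences of −0.90 ± 0.20 in Gch1fl/flTie2cre (± SE of the fit, adjusted p = 0.00145) and −0.73 ± 0.20 in wild-type (adjusted p = 0.00714). Without wild-type animal 2 the wild-type call was lost, with a highest adjusted p of 0.117. With quantile normalization without background correction both were under the fold threshold, at −0.57 in Gch1fl/flTie2cre and −0.46 in wild-type macrophages. A further Rab22a probe ran the other way and rose in Gch1fl/flTie2cre macrophages by 0.83 (adjusted p = 0.0178), so the transcript's direction depended on the probe. Rab31 rose by 0.66 ± 0.21 in Gch1fl/flTie2cre (adjusted p = 0.0163) and 0.69 ± 0.21 in wild-type macrophages (adjusted p = 0.0144). That call was lost without animal 1 (adjusted p = 0.0697) or animal 4 (0.165) in Gch1fl/flTie2cre, and without animal 3 (0.151) in wild-type macrophages.

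Rab5c, 1 of the 3 Rab5 isoforms that organize the early endosome, rose in Gch1fl/flTie2cre macrophages at 8 h by 0.60 ± 0.14 (adjusted p = 0.00176) and at 24 h by 0.76 ± 0.14 (adjusted p = 0.000233). At 24 h it read 13.96, 14.12 and 14.02 against 13.29, 13.10 and 13.42 at 0 h in Gch1fl/flTie2cre macrophages, and 13.87, 13.95 and 13.90 against 13.28, 13.27 and 13.70 in wild-type macrophages. Arrays at 24 h were above those at 0 h in both genotypes, and the wild-type differences of 0.42 at 8 h and 0.49 at 24 h were under the fold threshold. So was the 8 h rise in Gch1fl/flTie2cre macrophages without animal 1 (0.55) or animal 4 (0.57). Rab5a, Rab5b and Rab21 passed at no time by their brightest probe.

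Of the 7 recycling members, which return receptors to the plasma membrane, Rab4a and Rab14 were called at some time. Rab4a, of the fast recycling route, changed in both genotypes. Its arrays read 6.25, 5.32 and 6.04 at 8 h against 7.67, 7.55 and 7.33 at 0 h in Gch1fl/flTie2cre macrophages, and 5.61, 6.13 and 6.01 against 7.82, 7.38 and 8.02 in wild-type macrophages. None of the 6 arrays at 8 h detected it, and all 6 at 0 h did, so that it was at least 1.47-fold lower in Gch1fl/flTie2cre (adjusted p = 1.95e-05) and at least 1.85-fold lower in wild-type macrophages (adjusted p = 6.74e-06). At 24 h it was detected on all 6 arrays again, at 8.03, 7.96 and 7.62 in Gch1fl/flTie2cre and 7.99, 7.98 and 8.15 in wild-type macrophages. Rab14, which works between the Golgi and endosomes, rose at 24 h in wild-type macrophages by 0.65 ± 0.16 (adjusted p = 0.00403), a call lost without animal 2 (0.0631) and with the VSN values (0.45, under the fold threshold), and its value in Gch1fl/flTie2cre macrophages was 0.42. Rab4b, Rab10, Rab11a, Rab11b and Rab35 passed at no time.

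Of the 6 late endosomal and lysosomal members, Rab7b and Rab9 were called at 2 h, in both genotypes. At that time 17% of all genes were called in Gch1fl/flTie2cre and 16.2% in wild-type macrophages. Rab7b, which moves cargo between late endosomes and the Golgi and in mouse macrophages is known to limit the LPS receptor TLR4, fell at 2 h and returned. At 2 h it read 10.37, 10.74 and 10.67 against 12.06, 11.78 and 12.05 at 0 h in Gch1fl/flTie2cre macrophages, and 10.18, 10.47 and 10.16 against 12.11, 12.33 and 12.36 in wild-type macrophages. Every array at 2 h was over 1 log2 unit below its own animal's value at 0 h. The difference was −1.37 ± 0.19 in Gch1fl/flTie2cre (adjusted p = 4.52e-05) and −2.00 ± 0.19 in wild-type macrophages (adjusted p = 6.81e-07). By 24 h the arrays read 12.50, 12.66 and 12.04 in Gch1fl/flTie2cre and 13.21, 13.29 and 12.59 in wild-type macrophages, and only the wild-type difference from 0 h passed (0.76 ± 0.19, adjusted p = 0.00367). That wild-type rise was lost without animal 2 (0.0823) or animal 3 (0.0581). The difference between genotypes in these responses was 0.63 at 2 h, with a 95% interval of 0.08 to 1.18, and did not pass (adjusted p = 1).

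Rab9, which returns mannose 6-phosphate receptors from late endosomes to the Golgi, moved the other way at 2 h. Its arrays read 11.96, 12.49 and 11.88 at 2 h against 11.40, 11.26 and 11.001 at 0 h in Gch1fl/flTie2cre macrophages, and 11.87, 12.01 and 11.63 against 11.29, 10.96 and 11.05 in wild-type macrophages. Arrays at 2 h lay above those at 0 h in each genotype, with differences of 0.89 ± 0.24 in Gch1fl/flTie2cre (adjusted p = 0.0116) and 0.74 ± 0.24 in wild-type macrophages (adjusted p = 0.0359). Without animal 4 the adjusted p was 0.162 in Gch1fl/flTie2cre macrophages, and in wild-type macrophages it was 0.0569 to 0.307 without animal 2, 3, 4 or 6. Testing all probes ended the wild-type call (0.0764), and the next probe of the gene was not called in Gch1fl/flTie2cre macrophages (0.85, adjusted p = 0.0655).

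Rab24, linked to autophagosomes, rose at 8 h. Arrays read 11.61, 11.50 and 11.54 at 8 h against 10.62, 10.93 and 10.50 at 0 h in Gch1fl/flTie2cre macrophages, and 11.48, 11.50 and 11.48 against 10.79, 10.62 and 10.70 in wild-type macrophages. The 8 h arrays were all above 0 h, by 0.87 ± 0.13 in Gch1fl/flTie2cre (adjusted p = 4.5e-05) and 0.78 ± 0.13 in wild-type macrophages (adjusted p = 0.000146), and its other 2 probes rose as well. At 24 h it was still higher than at 0 h in Gch1fl/flTie2cre macrophages (0.79 ± 0.13, adjusted p = 0.000125), with a value of 0.50 in wild-type macrophages. Rab12 and Rab28 passed at no time. Rab7, the main Rab of late endosome and lysosome fusion, passed at no time by its brightest probe, with −0.27 in Gch1fl/flTie2cre and −0.41 in wild-type macrophages at 24 h. Its other 2 probes fell at 24 h in both genotypes, with log2 differences of −0.92 and −1.06 in Gch1fl/flTie2cre and −1.10 and −1.11 in wild-type macrophages, with adjusted p-values of 0.00113 to 0.00451.

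**Figure D2:**
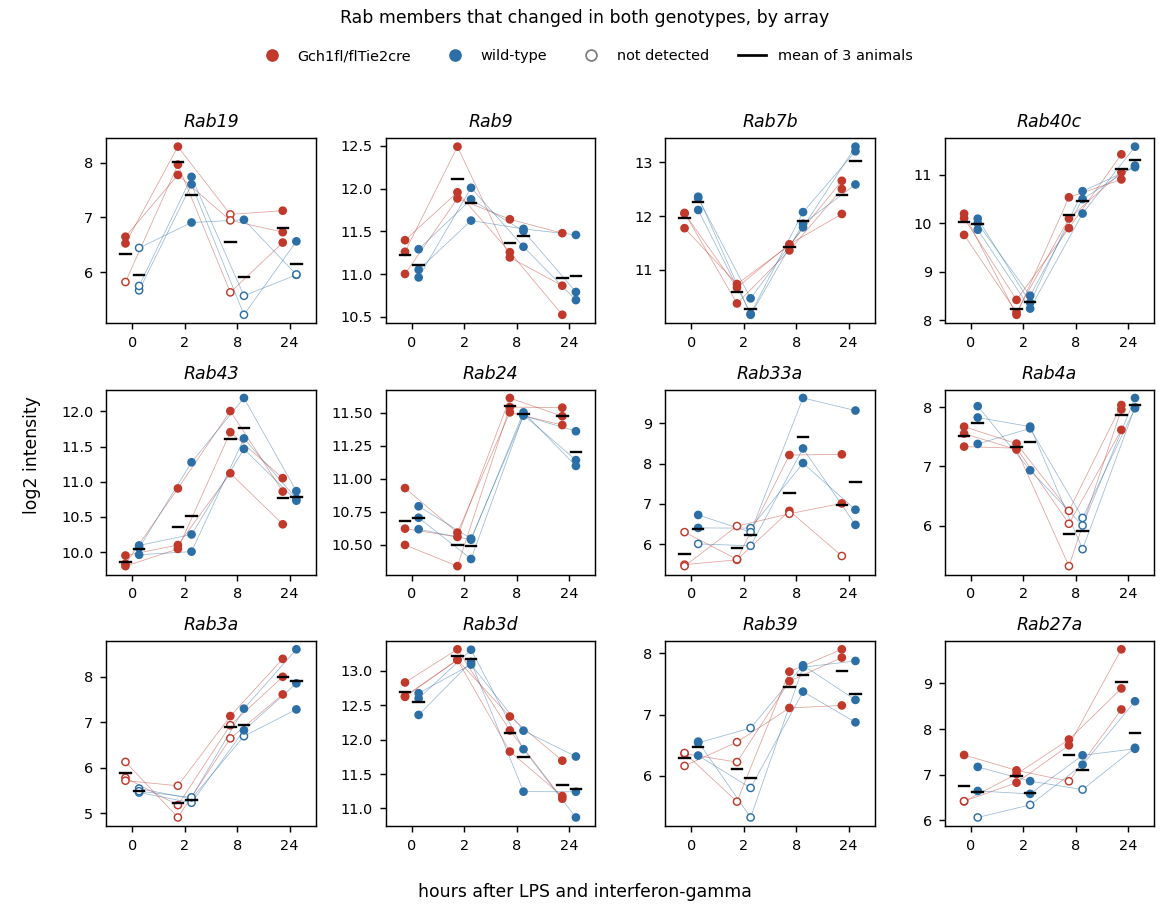
Log2 intensity (vertical axis) of 12 Rab members on every array at 0, 2, 8 and 24 h (horizontal axis), with 1 point per animal, thin lines joining the arrays of an animal, black bars for means of 3 animals and open points for arrays without detection. Rab7b and Rab40c are lowest at 2 h, Rab43 peaks at 8 h, Rab4a is undetected at 8 h only, and Rab3a and Rab27a are highest at 24 h.

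Of the 6 members that work at phagosomes and lysosome-related organelles, 4 rose and 1 fell at 24 h in Gch1fl/flTie2cre macrophages, with 33.2% of all genes called. In wild-type macrophages 2 rose and 0 fell, with 32.8% of all genes called. No difference between the genotypes in these responses passed, and several of the calls were lost in other settings, as given below. Rab43, reported on phagosomes and at the Golgi, rose most at 8 h. Its arrays read 11.12, 11.71 and 12.01 at 8 h against 9.95, 9.80 and 9.83 at 0 h in Gch1fl/flTie2cre macrophages, and 11.47, 11.62 and 12.19 against 10.09, 9.96 and 10.06 in wild-type macrophages. All arrays at 8 h exceeded all at 0 h, by 1.75 ± 0.27 in Gch1fl/flTie2cre (adjusted p = 6.12e-05) and 1.72 ± 0.27 in wild-type macrophages (adjusted p = 8.06e-05), and its other probes rose by 1.61 to 2.48. Animals 5 and 6 were the highest of their genotype at both 2 and 8 h, with 10.91 and 11.28 at 2 h. At 24 h Rab43 was still called, at 0.91 ± 0.27 in Gch1fl/flTie2cre (adjusted p = 0.0135) and 0.75 ± 0.27 in wild-type macrophages (adjusted p = 0.0383), but not by its other probes. The 24 h calls were also lost without animal 4 (0.155) or 5 (0.059) in Gch1fl/flTie2cre, and without animal 2, 3, 4 or 6 (0.0603 to 0.147) in wild-type macrophages, where testing all probes (0.109), dropping the animal block (0.0639), cyclic loess (0.0517) and the VSN values (0.0507) ended it as well.

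Rab39, a Rab of phagosome acidification, was near the detection limit at rest. It read 7.11, 7.54 and 7.70 at 8 h and 7.15, 7.93 and 8.06 at 24 h in Gch1fl/flTie2cre macrophages, against 6.16, 6.36 and 6.37 at 0 h, when it was detected on 0 arrays. It was therefore at least 1.99-fold higher at 8 h (adjusted p = 0.00793) and at least 2.39-fold higher at 24 h (adjusted p = 0.00184). In wild-type macrophages it read 7.80, 7.37 and 7.77 at 8 h and 7.24, 6.87 and 7.87 at 24 h, against 6.54, 6.33 and 6.56 at 0 h. These arrays also lay above rest, by 1.17 ± 0.32 at 8 h (adjusted p = 0.00758) and 0.85 ± 0.32 at 24 h (adjusted p = 0.0423). Without animal 4 the 8 h rise in Gch1fl/flTie2cre was not called (0.0746), and without animal 2, 3, 4 or 6 that at 24 h in wild-type macrophages was not (0.0735 to 0.188). The bounds hold on the background-corrected scale only: with quantile normalization without background correction the 8 h rise was 0.47 in Gch1fl/flTie2cre and 0.52 in wild-type macrophages, and with the VSN values 0.43 in Gch1fl/flTie2cre and 0.49 in wild-type macrophages, all under the fold threshold. The wild-type rise at 24 h was ended by the same settings (0.36 and 0.40), by testing all probes (0.114), without the animal block (0.057), with animals 5 and 6 as a block (0.0627) and without these animals (0.0996). The related Rab39b passed at no time.

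Rab34, which is needed for phagosome maturation and for cilia, fell at 8 h, with log2 differences of −0.86 ± 0.21 in Gch1fl/flTie2cre (adjusted p = 0.00345) and −0.76 ± 0.21 in wild-type macrophages (adjusted p = 0.00884). Each call was lost without 1 animal, animal 4 in Gch1fl/flTie2cre (0.0541) and animal 3 in wild-type macrophages (0.0953). At 24 h only the Gch1fl/flTie2cre fall passed, with −0.92 ± 0.21 (adjusted p = 0.00211), and the wild-type value was −0.44. Rab32, a Rab of lysosome-related organelles, rose at 24 h in Gch1fl/flTie2cre macrophages by 0.66 ± 0.24 (adjusted p = 0.0395), with −0.04 in wild-type macrophages. Rab29, which recruits the kinase LRRK2 to membranes, rose at 24 h in Gch1fl/flTie2cre macrophages by 0.59 ± 0.22 (adjusted p = 0.0395), close to the fold threshold of 0.58, with 0.56 in wild-type macrophages. The Rab32 call was lost without animal 1, 3, 4 or 5 (0.0549 to 0.2) and the Rab29 call without animal 1, 2, 3, 4 or 5 (0.0517 to 0.268). Testing all probes or dropping the animal block ended both, with adjusted p-values of 0.105 and 0.0677 for Rab32 and 0.0947 and 0.0667 for Rab29. Rab29 was also lost with cyclic loess, and was under the fold threshold with VSN, quantile normalization alone, array weights and without animals 5 and 6, at 0.51 to 0.58.

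The 10 members of the endoplasmic reticulum and Golgi held the largest rise at 2 h. Rab19, a little studied Golgi Rab, read 7.97, 8.30 and 7.78 at 2 h against 5.82, 6.53 and 6.65 at 0 h in Gch1fl/flTie2cre macrophages, and 7.61, 7.74 and 6.91 against 5.67, 5.75 and 6.44 in wild-type macrophages. It was detected on all 6 arrays at 2 h and on 2 Gch1fl/flTie2cre and 0 wild-type arrays at 0 h. The rise was 1.68 ± 0.39 in Gch1fl/flTie2cre macrophages (adjusted p = 0.00439) and at least 1.98-fold in wild-type macrophages (adjusted p = 0.0115). At 8 h its values had returned, with 5.63, 7.06 and 6.95 in Gch1fl/flTie2cre and 5.22, 5.57 and 6.96 in wild-type macrophages, detected on 0 and 1 arrays. Leaving out animal 1 (0.0585) or 4 (0.0559) ended the call in Gch1fl/flTie2cre macrophages, and leaving out animal 2 (0.129) or 3 (0.18) that in wild-type macrophages. With quantile normalization without background correction (0.576) or the VSN values (0.54) the wild-type rise was under the fold threshold. The wild-type Rab19 bound therefore holds on the background-corrected scale only.

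Rab33a, a Golgi Rab that is abundant in brain and lymphoid cells, rose at 8 h unevenly. It read 6.83, 6.76 and 8.21 at 8 h in Gch1fl/flTie2cre macrophages against 5.50, 5.46 and 6.30 at 0 h, and 8.37, 8.01 and 9.62 against 6.01, 6.41 and 6.73 in wild-type macrophages. Animals 5 and 6 were the highest arrays of their genotypes at 8 h and at 24 h, when they read 8.23 and 9.31. The rise was at least 1.75-fold in Gch1fl/flTie2cre (adjusted p = 0.0438) and 2.29 ± 0.57 in wild-type macrophages (adjusted p = 0.00444). In Gch1fl/flTie2cre macrophages it was not called without animal 1, 2, 3, 4 or 5 (0.0558 to 0.137), nor with quantile normalization alone (0.60, adjusted p = 0.14), the VSN values (0.56, adjusted p = 0.156), all probes tested (0.144) or no animal block (0.076). The Rab33a bound in Gch1fl/flTie2cre macrophages holds on the background-corrected scale only. Its relative Rab33b, which binds the autophagy protein ATG16L1, fell in Gch1fl/flTie2cre macrophages at 2 h (−0.65 ± 0.21, adjusted p = 0.0359) and at 8 h (−0.95 ± 0.21, adjusted p = 0.00156), with −0.33 and −0.50 in wild-type macrophages. The fall at 2 h was that of animal 5, at 8.64 against 9.63 and 9.78 in animals 1 and 4 and without animal 5 it was −0.28 (adjusted p = 0.392). Leaving out animal 1, 2, 3 or 4 also ended it (0.0523 to 0.0789), as did testing all probes (0.0728), dropping the animal block (0.0567), array weights (0.0569), animals 5 and 6 as a block at each time (0.0765) or left out (0.228), and quantile normalization alone (−0.53, under the fold threshold).

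Rab6b, an isoform of the retrograde Golgi Rab known mainly from neurons, read 4.88, 4.98 and 5.04 at 8 h against 6.45, 7.20 and 6.87 at 0 h in Gch1fl/flTie2cre macrophages, and 5.27, 5.20 and 5.09 against 6.44, 5.90 and 7.45 in wild-type macrophages. It was detected on 0 arrays at 8 h, and no fold is given because its values at rest were near the detection limit, with 3 Gch1fl/flTie2cre and 1 wild-type array detecting it (adjusted p = 0.000163 in Gch1fl/flTie2cre and 0.00222 in wild-type macrophages). The wild-type call was lost with quantile normalization alone and with the VSN values, where its fold was under the threshold (−0.52 and −0.53). Rab2b, of the route between endoplasmic reticulum and Golgi, was at least 1.09-fold lower at 24 h in Gch1fl/flTie2cre macrophages (adjusted p = 0.0232), with 0.02 in wild-type macrophages. That call was lost without animal 1 (0.155) or 4 (0.123), with all probes tested (0.082), and under the fold threshold with quantile normalization alone (−0.38) and the VSN values (−0.42). Rab6a, the widely expressed isoform, rose at 8 h in wild-type macrophages by 0.62 ± 0.18 (adjusted p = 0.0116), with 0.43 in Gch1fl/flTie2cre macrophages, and without animal 3 (0.0862) or 6 (0.131) it was not called. It was under the fold threshold with array weights, VSN, quantile normalization alone, and animals 5 and 6 left out or as a block at each time, at 0.42 to 0.58. The Rab6a probes disagreed at 24 h in wild-type macrophages, with 1.14 on one and −0.84 and −0.78 on a pair of others, all past the test. Rab1a, Rab1b, Rab2a and Rab18 passed at no time.

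The 6 secretory members held the largest changes at 24 h, in both directions. Rab3a, best known for docking synaptic vesicles, read 7.61, 8.00 and 8.39 at 24 h against 6.13, 5.78 and 5.72 at 0 h in Gch1fl/flTie2cre macrophages, and 7.28, 7.85 and 8.60 against 5.54, 5.46 and 5.49 in wild-type macrophages. It was detected on all 6 arrays at 24 h and on 0 at 0 h, which makes it at least 2.90-fold higher in Gch1fl/flTie2cre (adjusted p = 3.08e-06) and at least 2.78-fold higher in wild-type macrophages (adjusted p = 6.62e-07). At 8 h it was at least 1.36-fold higher in Gch1fl/flTie2cre (adjusted p = 0.00337) and at least 1.42-fold higher in wild-type macrophages (adjusted p = 0.000208), detected on 1 and 2 arrays. Without animal 4 the 8 h rise in Gch1fl/flTie2cre macrophages was not called (0.0584). With quantile normalization without background correction the 8 h values were 0.36 in Gch1fl/flTie2cre and 0.50 in wild-type macrophages, and with the VSN values 0.34 in Gch1fl/flTie2cre and 0.51 in wild-type macrophages, all under the fold threshold, so the 8 h bounds too hold on the background-corrected scale only.

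Rab27a, which docks granules and melanosomes at the plasma membrane, rose at 24 h. Its arrays read 8.89, 9.74 and 8.43 at 24 h against 6.42, 6.42 and 7.43 at 0 h in Gch1fl/flTie2cre macrophages, and 8.61, 7.57 and 7.59 against 6.07, 6.65 and 7.17 in wild-type macrophages. Arrays at 24 h were above those at 0 h in each genotype, by 2.26 ± 0.37 in Gch1fl/flTie2cre (adjusted p = 0.000105) and 1.29 ± 0.37 in wild-type macrophages (adjusted p = 0.0103). The wild-type rise rested on animal 2, without which it was 0.67 (adjusted p = 0.26). Rab3d, a Rab of secretory granules, was lower at 24 h than at 0 h, after higher readings at 2 h. At 2 h it read 13.16, 13.31 and 13.16 in Gch1fl/flTie2cre and 13.31, 13.13 and 13.09 in wild-type macrophages. These lay above every 0 h array, but Rab3d was not called at 2 h. It read 11.18, 11.14 and 11.69 at 24 h against 12.63, 12.83 and 12.62 at 0 h in Gch1fl/flTie2cre macrophages, and 10.87, 11.24 and 11.76 against 12.60, 12.36 and 12.68 in wild-type macrophages. All arrays at 24 h lay below all at 0 h, with log2 differences of −1.36 ± 0.22 in Gch1fl/flTie2cre (adjusted p = 7.74e-05) and −1.26 ± 0.22 in wild-type macrophages (adjusted p = 0.000173). The fall was called at 8 h too, at −0.60 ± 0.22 in Gch1fl/flTie2cre (adjusted p = 0.0356) and −0.80 ± 0.22 in wild-type macrophages (adjusted p = 0.00742), but not without animal 1 (0.218) or 4 (0.191) in the first case and animal 3 (0.0913) in the second. The 8 h call in Gch1fl/flTie2cre macrophages was also lost with cyclic loess (0.0878), the VSN values (0.122), all probes tested (0.0786) and no animal block (0.0543). Rab8a, Rab8b and Rab13 passed at no time by their brightest probe.

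Rab40c, whose product carries a SOCS box and acts in ubiquitin ligase complexes, had the most pronounced reversal over time. At 0, 2, 8 and 24 h its means were 10.02, 8.23, 10.18 and 11.12 in Gch1fl/flTie2cre macrophages and 9.99, 8.37, 10.45 and 11.31 in wild-type macrophages. The arrays at 2 h read 8.12, 8.17 and 8.42 against 10.20, 9.76 and 10.11 at 0 h in Gch1fl/flTie2cre, and 8.36, 8.51 and 8.24 against 10.10, 10.00 and 9.87 in wild-type macrophages. All 6 arrays at 2 h lay below, and all 6 at 24 h above, every array at 0 h. The fall at 2 h was −1.79 ± 0.19 in Gch1fl/flTie2cre (adjusted p = 2.64e-06) and −1.62 ± 0.19 in wild-type macrophages (adjusted p = 7.46e-06), and the rise at 24 h was 1.10 ± 0.19 in Gch1fl/flTie2cre (adjusted p = 0.000166) and 1.32 ± 0.19 in wild-type macrophages (adjusted p = 2.65e-05). None of these 4 calls was lost in another setting or without an animal.

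The 2 members that are not GTPases fell. Rab3il1 was at least 1.15-fold lower at 8 h in Gch1fl/flTie2cre (adjusted p = 0.00704) and at least 1.46-fold lower in wild-type macrophages (adjusted p = 0.0222), where the call was lost without animal 3 (0.118) or 6 (0.0727) and with all probes tested (0.0699). In both genotypes it was under the fold threshold with quantile normalization alone and the VSN values (−0.49 to −0.56), and the next probe was not called in Gch1fl/flTie2cre macrophages (adjusted p = 0.104). The wild-type Rab3il1 bound holds on the background-corrected scale only. Rab26os fell at 2 h, with log2 differences of −0.93 ± 0.31 in Gch1fl/flTie2cre (adjusted p = 0.0412) and −0.96 ± 0.31 in wild-type macrophages (adjusted p = 0.0361), calls that leaving out animal 1, 2, 3 or 4 ended in either genotype (0.053 to 0.321) and animal 5 in Gch1fl/flTie2cre (0.184). Testing all probes (0.128 in Gch1fl/flTie2cre and 0.121 in wild-type macrophages) and dropping the animal block (0.0887 in Gch1fl/flTie2cre and 0.081 in wild-type macrophages) ended both.

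No member was called different between Gch1fl/flTie2cre and wild-type macrophages at 0, 2, 8 or 24 h, where 0.0225, 0.0225, 0.0225 and 0.338% of all genes were called, the last made up of 0.0676% higher and 0.27% lower. At an unadjusted p under 0.05, limma counted 1, 2, 3 and 4 members at the 4 times (2.27, 4.55, 6.82 and 9.09%), with 1.61, 2.22, 4.39 and 9.7% of all genes. At 24 h the 95% interval of the difference lay within 1.5-fold either way for 17 of 44 members, so differences of that size were not excluded for the others. The arrays of the genotypes did not overlap in 4, 5, 5 and 6 members at 0, 2, 8 and 24 h (9.09, 11.4, 11.4 and 13.6%), with 7.45, 7.49, 9.76 and 11.8% of all genes. Array weights, which give less weight to variable arrays and had not fully converged, called 7 members at 24 h (15.9%, with 12.5% of all genes).

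Rab34 was the member farthest below wild-type at 24 h and the only one that lacked overlap at 3 times. At 24 h it read 8.37, 8.34 and 8.80 in Gch1fl/flTie2cre macrophages, against 9.01, 9.59 and 9.83 in wild-type macrophages. At 0 h it read 9.28, 9.32 and 9.68 in Gch1fl/flTie2cre against 9.63, 9.86 and 10.27 in wild-type macrophages. At 2 h it read 9.20, 9.37 and 9.37 in Gch1fl/flTie2cre against 9.44, 9.84 and 10.06 in wild-type macrophages, and at 8 h 8.69, 8.34 and 8.67 in Gch1fl/flTie2cre against 8.87, 8.97 and 9.64 in wild-type macrophages. Every Gch1fl/flTie2cre array was below every wild-type array at 2, 8 and 24 h, and at 0 h only the highest Gch1fl/flTie2cre array reached the lowest wild-type array. The differences were −0.49, −0.47, −0.60 and −0.97 at 0, 2, 8 and 24 h, with adjusted p-values of 1, 1, 0.955 and 0.0606. The other 2 Rab34 probes were lower in Gch1fl/flTie2cre macrophages at every time too, with log2 differences of −0.48 to −0.87. At 24 h the Rab34 difference passed without wild-type animal 2 (−1.21, adjusted p = 0.024), without animals 5 and 6 (−0.95, adjusted p = 0.0392), with array weights (−1.06, adjusted p = 0.000235) and with quantile normalization alone (−0.74, adjusted p = 0.0413). It also passed with animals 5 and 6 as a fixed block (−0.97, adjusted p = 0.011). It did not pass with cyclic loess, the VSN values, all probes tested or no animal block, nor without animal 1, 3, 4, 5 or 6. The study lists both Rab34 and Rab32 as changed by genotype at 24 h, at a false discovery rate under 0.05 and over 1.5-fold. Its table gives Rab34 as lower and Rab32 as higher in Gch1fl/flTie2cre macrophages. The directions were the same here, but neither passed in the main setting. Both were picked out by the study from these same arrays, so their values here are no independent evidence.

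**Figure D3:**
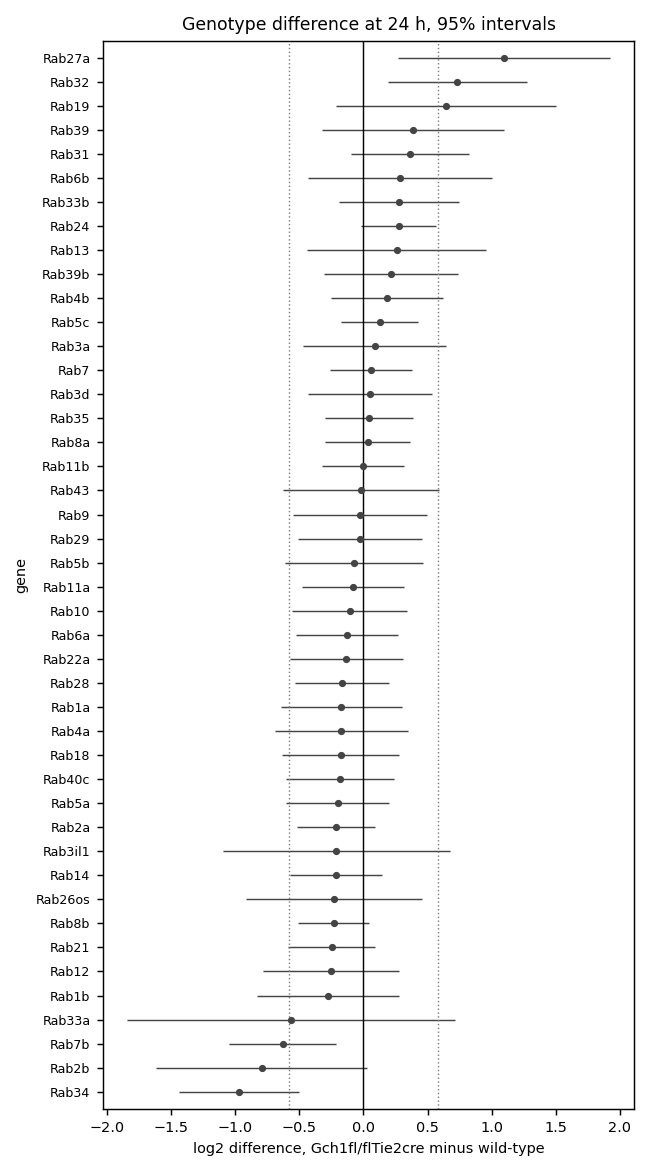
Difference between Gch1fl/flTie2cre and wild-type macrophages at 24 h (horizontal axis, log2, with 95% intervals from the fit, 3 animals per genotype) for each of the 44 Rab members (vertical axis, ordered by the difference); dotted lines mark the 1.5-fold threshold. Rab27a, Rab32 and Rab19 are at the higher end and Rab34, Rab2b and Rab7b at the lower end, and none passed the test.

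At the other end of the order, Rab27a was 1.10 ± 0.40 higher in Gch1fl/flTie2cre macrophages at 24 h (adjusted p = 0.309), from the arrays given above, which overlapped. Rab32 read 14.42, 14.21 and 14.06 in Gch1fl/flTie2cre macrophages at 24 h against 14.24, 13.37 and 12.88 in wild-type macrophages. Wild-type animal 2 overlapped the Gch1fl/flTie2cre range and the other wild-type arrays were lower, with a difference of 0.73 ± 0.26 (adjusted p = 0.29). It passed with the deposited VSN values (0.87, adjusted p = 0.0255) and with array weights (0.59, adjusted p = 0.0328). Rab19, Rab39 and Rab31 were next at 0.64, 0.38 and 0.36, with adjusted p-values of 0.718 to 0.876.

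On the lower side at 24 h, Rab2b read 5.40, 5.58 and 5.47 in Gch1fl/flTie2cre macrophages, all undetected, against 6.52, 6.67 and 5.65 in wild-type macrophages, and no fold is given (adjusted p = 0.572). Rab7b was at −0.63 ± 0.20 in Gch1fl/flTie2cre relative to wild-type macrophages (adjusted p = 0.21), with an overlap of Gch1fl/flTie2cre animal 4 and wild-type animal 6. Rab33a was at −0.57 and Rab1b at −0.28, with adjusted p-values of 0.922 and 0.901. At 8 h Rab33a differed most, at −1.40 with a 95% interval of −2.68 to −0.13 (adjusted p = 0.999).

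When animals 5 and 6 were given a term of their own at each time, 5 members passed at 24 h (11.4%, with 6.01% of all genes), with Rab27a and Rab32 higher and Rab34, Rab7b and Rab2b lower in Gch1fl/flTie2cre macrophages, with adjusted p-values of 0.00205 to 0.0473, and Rab33a passed at 8 h (0.0275). That term was chosen from these arrays, after they were seen, so its p-values are too small. The study describes its data as paired, and the labels used here do not say which animals of the genotypes belong together.

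**Figure D4:**
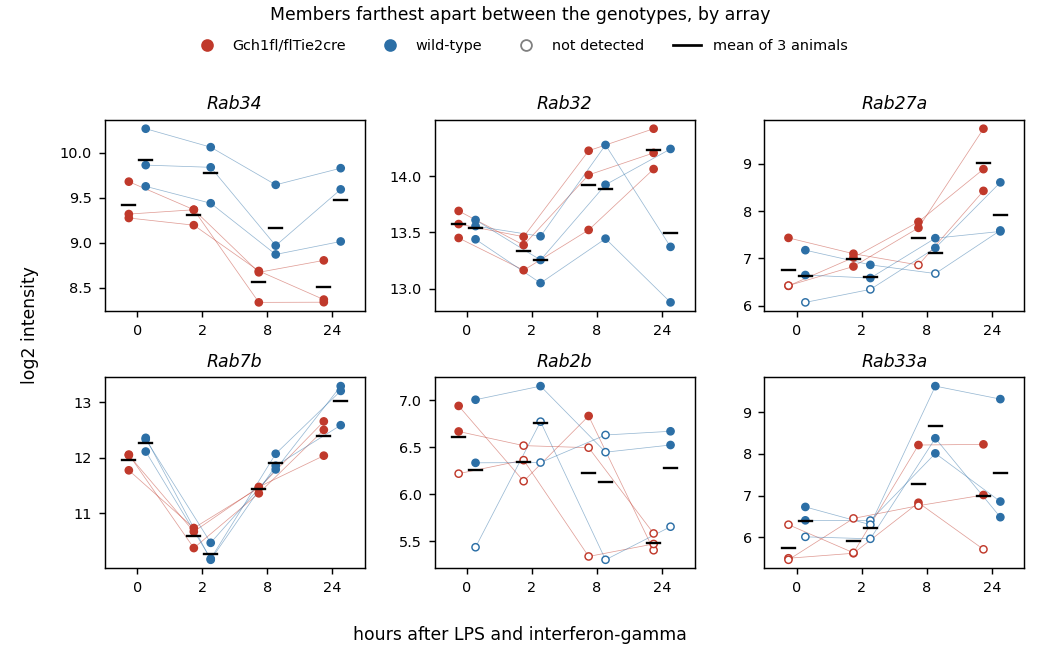
Log2 intensity (vertical axis) on every array of the 6 Rab members whose genotype difference at 24 h is described at most length, at 0, 2, 8 and 24 h (horizontal axis), with Gch1fl/flTie2cre left of wild-type, lines joining an animal's arrays, black bars for means of 3 animals and open points for arrays without detection. For Rab34 the 2 genotypes do not overlap at 2, 8 and 24 h.

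The responses themselves were compared between genotypes. No member's response differed at 2, 8 or 24 h, where 0, 0 and 0.0113% of all genes did, and 1, 0 and 2 members had an unadjusted p under 0.05 (2.27, 0 and 4.55%), with 1.08, 1.96 and 5.51% of all genes. Some members were called in 1 genotype only, such as Rab32, Rab2b, Rab24, Rab29 and Rab5c at 24 h in Gch1fl/flTie2cre and Rab14 and Rab7b at 24 h in wild-type macrophages. Since the difference of the responses did not pass for any of them, these are not shown to be particular to a genotype. The 2 at 24 h were Rab21, at −0.46 with a 95% interval of −0.91 to −0.01 (adjusted p = 0.834), and Rab2b, for which no size is given because it was undetected in Gch1fl/flTie2cre macrophages at that time (adjusted p = 0.817).

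The other genes of the Rab cycle were read from a list of 84 tested genes: 6 for prenylation and GDP dissociation inhibition, 23 exchange factors, 27 GTPase-activating proteins and 28 effectors. In Gch1fl/flTie2cre macrophages 7 rose and 12 fell at 2 h, 15 rose and 13 fell at 8 h, and 17 rose and 6 fell at 24 h, or 22.6, 33.3 and 27.4%. In wild-type macrophages 5 rose and 15 fell at 2 h, 15 rose and 11 fell at 8 h, and 15 rose and 9 fell at 24 h, or 23.8, 31.0 and 28.6%. The shares of all genes called at 2, 8 and 24 h were 17, 34.9 and 33.2% in Gch1fl/flTie2cre macrophages. In wild-type macrophages they were 16.2, 31.3 and 32.8%. None of the 84 differed between genotypes at any time.

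Among exchange factors, Mon1a, a subunit of the factor for Rab7, fell at 2 h, with log2 differences of −1.33 in Gch1fl/flTie2cre and −1.27 in wild-type macrophages, and Rgp1, of the factor for Rab6, with log2 differences of −1.13 in Gch1fl/flTie2cre and −1.04 in wild-type macrophages. Dennd4a, for Rab10, rose at 2 h by 1.34 in Gch1fl/flTie2cre and 1.46 in wild-type macrophages, and Dennd1a, for Rab35, at 8 h by 2.00 in Gch1fl/flTie2cre and 1.46 in wild-type macrophages. Hps4, of the factor for Rab32 and Rab38, fell at 2 h, with log2 differences of −0.71 in Gch1fl/flTie2cre and −1.18 in wild-type macrophages and was higher than at rest at 24 h by 1.09 in Gch1fl/flTie2cre and 0.63 in wild-type macrophages. In each of these the genotypes moved the same way.

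The GTPase-activating proteins named here were picked after their values were seen, so their sizes do not compare the classes. Tbc1d8 fell at 8 h, with log2 differences of −3.48 in Gch1fl/flTie2cre and −3.75 in wild-type macrophages. Tbc1d9 rose at 8 h by 2.20 in Gch1fl/flTie2cre and 2.37 in wild-type macrophages and at 24 h by 2.00 in Gch1fl/flTie2cre and 2.33 in wild-type macrophages, and its relative Tbc1d9b at 8 h by 1.96 in Gch1fl/flTie2cre and 1.63 in wild-type macrophages. Usp6nl, which acts on Rab5, rose at 24 h by 1.51 in Gch1fl/flTie2cre and 1.54 in wild-type macrophages.

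Among the effectors, several bind a member described above. Unc13d, which works with Rab27a in granule priming, fell at 2 h, with log2 differences of −0.75 in Gch1fl/flTie2cre and −0.69 in wild-type macrophages and was higher at 24 h by 1.69 in Gch1fl/flTie2cre and 1.49 in wild-type macrophages. Rab11fip1, an effector of Rab11 and Rab4, rose at 8 h by 2.37 in Gch1fl/flTie2cre and 1.96 in wild-type macrophages. Fyco1, an effector of Rab7, was higher at 24 h by 0.91 in Gch1fl/flTie2cre and 1.18 in wild-type macrophages, and Rilp, another, fell at 2 h, with log2 differences of −0.89 in Gch1fl/flTie2cre and −0.71 in wild-type macrophages. Myo5a, the motor that Rab27a recruits, fell at 24 h, with log2 differences of −1.36 in Gch1fl/flTie2cre and −0.63 in wild-type macrophages. Lrrk2, the kinase that phosphorylates several Rabs and is recruited by Rab29, rose at 24 h by 1.96 in Gch1fl/flTie2cre and 1.27 in wild-type macrophages, and Chm, the escort protein for Rab prenylation, fell, with log2 differences of −0.80 in Gch1fl/flTie2cre and −0.72 in wild-type macrophages.

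Levels of markers of other cells moved with time. The summed intensity of the 5 neutrophil markers ran from 10120 to 34958 in Gch1fl/flTie2cre and 11634 to 29997 in wild-type macrophages at 24 h, against 1134 to 7842 in Gch1fl/flTie2cre and 1333 to 7573 in wild-type macrophages at 0 h. S100a9, the one of them with the largest genotype difference at 24 h, was at 1.58 (adjusted p = 0.936). The part of other cells in the Rab responses was not tested.

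Of the 44 members, 33 were detected on all 24 arrays and 11 on 8 to 23, and 17 had over 1 tested probe. Counting each further probe in each comparison, either it or the brightest was called in 56 cases, in 28 of them in the same direction and in 1 in opposite directions, that of Rab22a given above. The Illumina probes were not aligned to transcripts here, so it was not tested whether probes that disagree read different transcripts. The 18 Rab symbols that were not tested were Rab15, Rab17, Rab20, Rab23, Rab25, Rab26, Rab27b, Rab30, Rab36, Rab37, Rab38, Rab3b, Rab3c, Rab3ip, Rab40b, Rab42, Rab44 and Rab9b, of which Rab38 was detected on 1 array and the other 17 on 0. These include Rab27b and Rab38, the nearest relatives of Rab27a and Rab32.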

How the data were processed

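RNA of bone marrow-derived macrophages, extracted with mirVana columns and amplified with biotin labels, was measured on 24 Illumina mouse arrays read in GenomeStudio. The authors deposited raw intensities and detection p-values per probe, and values on a log2 scale that they normalized with VSN. Per the labels R 2.14 and limma were used. Each column was mapped to a sample by its label.

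Intensities were corrected and normalized here with limma 3.58.1 in R 4.3.3 (neqc, background from detection p-values, offset 16, quantile, log2). Probes with detection p under 0.01 on at least 3 arrays were tested, 16498 of 45281, and gene names came from the platform annotation, updated through RefSeq. A model of 8 groups, with animals as random effects (duplicateCorrelation, statmod 1.5.0), was fitted in limma. The consensus correlation within an animal was 0.124. The labels give the same 6 animals at each time, and an animal's arrays of different times resembled each other after group means were removed (median r of 0.165 to 0.340 per animal). Benjamini-Hochberg adjustment ran over the tested probes, and calls required both adjusted p < 0.05 and more than a 1.5-fold change. Values after ± are standard errors of the fit, and p-values in brackets without a name are limma's adjusted p-values. Where a group had no detected array, "at least" folds compare the other group's mean with the higher of each array's lowest detected and own value. The number of arrays limits the precision. The test was checked on simulated data.

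The members, roles and lists were chosen with earlier results of these data known. The rule for naming took members past the threshold in a genotype difference or a difference of responses, up to 5 rising and 5 falling per response, the 5 highest and 5 lowest genotype differences at 24 h, and Rab32 and Rab34. The other called members and the Rab-cycle genes were named after their values were seen. Alternatives were the background correction, normalization, deposited VSN values, filter, block, array weights, fold threshold, probe, and leaving out animals.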

Additional observations from a re-analysis of the deposited data

How the results depend on the processing

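Percentages in brackets are those of all genes called in the same setting. No genotype difference was called among the members at 0, 2 or 8 h under any alternative listed here but the fixed block at each time. At 24 h the count of 0 (0.338%) became 1 with quantile normalization alone (0.901%) and 1 with the deposited VSN values (0.744%). It was 7 with array weights (3 higher and 4 lower, 12.5%), 1 without animals 5 and 6 (1.6%), and 1 with these as a fixed block (1.48%). A fixed block for animals 5 and 6 at each time, chosen after seeing the data, gave 1 at 8 h (0.777%) and 5 at 24 h (6.01%). It gave 10 for the Gch1fl/flTie2cre (25%) and 9 for the wild-type response at 2 h (25.8%). Differences of responses stayed at 0 except with array weights, which gave 3 of the 44 members at 24 h (8.23%). Quantile normalization alone called 9 in place of 14 members in the Gch1fl/flTie2cre response at 8 h (25.8% in place of 34.9%). In the wild-type response at 8 h it called 7 in place of 13 (23.5% in place of 31.3%). The wild-type response at 24 h, with 8 members called (32.8%), gave 5 with VSN (24.8%) and 13 with array weights (39.5%). That at 2 h, with 5 (16.2%), gave 3 without a filter (471 higher and 651 lower of 19057 genes). It gave 9 with array weights (26.2%) and 9 without animals 5 and 6 (24%). The cause was not tested, and array weights had not fully converged.

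Leaving out each animal in turn gave 0 to 1 members for the genotype at 24 h (1 without animal 2), 3 to 8 and 7 to 14 and 8 to 15 for the Gch1fl/flTie2cre responses at 2, 8 and 24 h, and 2 to 8, 9 to 14 and 5 to 9 for the wild-type responses. The shares of all genes were 0.0225 to 0.71% for the genotype at 24 h. They were 8.27 to 20.2, 21.9 to 38.7 and 20.6 to 37% for the Gch1fl/flTie2cre responses. For the wild-type responses they were 7.93 to 18.6, 21.1 to 34.6 and 23.2 to 35.5%. The Gch1fl/flTie2cre count was 3 at 2 h without animal 1 or 4 (8.27 and 8.89% of all genes) and 7 at 8 h without animal 4 (21.9%). The wild-type count at 2 h was 3 without animal 2 or 4 (7.93 and 13.7% of all genes), 2 without animal 3 (8.42%) and 8 without animal 6 (14.2%). At 24 h it was 5 without animal 2 or 3 (26.2 and 23.2%). Without the animal as a replicate block, the counts at 2, 8 and 24 h were 4, 12 and 10 in Gch1fl/flTie2cre (14.4, 32 and 30.4% of all genes). In wild-type macrophages they were 4, 13 and 6 (13.8, 28.2 and 30%). Of single values, Rab33a's genotype difference at 24 h turned to 0.051 with array weights and ran from −1.19 to 0.31 without each animal in turn, positive without animal 1 (0.07) or 6 (0.31). Members near background, such as Rab2b, Rab3a, Rab33a and Rab39, have differences that rest on the offset and background correction.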
